A study of Homo sapiens with 16 samples.

Results

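The last interval of a risperidone exposure series was examined, by setting SK-N-SH cells exposed for 48 h against SK-N-SH cells exposed for 24 h. The comparison takes 8 of the 16 arrays of the series, 4 for each of these times, chosen by the time given in the sample titles. SK-N-SH is an established human neuroblastoma line whose cultures mix small adrenergic cells, which resemble neuroblasts, with flat mesenchymal ones. Risperidone, given to treat psychosis, is an antagonist of dopamine and serotonin receptors. Cells of both groups had received 10 µM risperidone dissolved in DMSO, and total RNA was measured on Human Genome U219 arrays. The remaining 8 arrays, 4 from cells exposed for 6 h and 4 from untreated cells, are used only to set the late interval beside the earlier ones. Their labels say untreated, whereas the protocol gives the controls DMSO alone, with no harvest time. No untreated culture is labelled with the age of the 24 h or the 48 h culture, so a longer exposure and a longer time in culture cannot be told apart here. All arrays come from this 1 cancer line. Replicates are labelled as biological, but whether each was a culture of its own is not described, and the spread that the p-values measure may therefore be technical. The protocol has the cells grown close to confluence before exposure began.

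All values are deposited log2 levels made by robust multi-array averaging (RMA), where 1 unit is a 2-fold difference. Each gene was represented by 1 probe set, and 13680 of 18239 genes were tested after the dimmest 25% were left out. Every difference below is the 48 h mean minus the 24 h mean on the log2 scale, with its standard error after the ± sign (n = 4 arrays per group). Tests were made with limma, and a gene is said to have risen or fallen only when its Benjamini-Hochberg adjusted p was under 0.05.

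Array medians lay between 4.54 and 4.58. Over all tested genes, Pearson correlations between arrays were 0.997 to 0.999 within 48 h, 0.998 to 0.999 within 24 h and 0.994 to 0.996 between the times. The first principal component of the 8 arrays held 55.9% of the variance and parted 48 h, at 11.7 to 12.74, from 24 h, at -12.93 to -11.66. One 48 h array, replicate 4, stood apart on the second component (15.8% of the variance), at -15.03 against 3.395 to 6.659 for the other 48 h arrays. Defining markers of other cell types were low in these cultures: the 10 Schwann cell and glia markers, of which 7 had a probe set, had a median level of 3.72, and the 8 measured leukocyte markers one of 3.53, near the limit of 3.65 below which genes were left out. The highest of them were S100B at 5.80 and the epithelial keratin gene KRT19 at 5.27. Adrenergic markers had a median of 11.6, with the catecholamine enzyme gene DBH at 12.1. TH, which encodes the first enzyme of catecholamine synthesis, was at only 5.03. The difference between 3 prime and 5 prime control probe sets, a sign of RNA integrity, was 0.10 ± 0.01 at 48 h and 0.095 ± 0.02 at 24 h for GAPDH (SD, exact two-sided permutation test over 70 arrangements, p = 0.857). For ACTB it was 1.90 ± 0.17 at 48 h and 2.08 ± 0.10 at 24 h (SD, exact permutation p = 0.143, adjusted over both controls 0.286, where 0.0286 is the smallest the design allows).

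Between 24 h and 48 h, 4001 genes (29.2%) changed. Of these, 1881 genes rose and 2120 fell, 13.8% and 15.5% of the genes tested. Most of these differences were small. Only 132 genes rose and 97 fell by at least 1.5-fold (0.965% and 0.709%), and 17 rose and 7 fell by at least 2-fold (0.124% and 0.0512%). Without 48 h replicate 4, 1974 genes rose and 2431 fell. In 1963 genes all 4 arrays at 48 h lay above all 4 at 24 h, and in 2199 genes all lay below (14.3% and 16.1%). The median absolute difference was 0.11 for this interval, and 0.06 for the interval between 6 h and 24 h. The intervals differ in length, so these values are not changes per hour. The median SD within a group was 0.093 at 48 h and 0.071 at 24 h.

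**Figure D1:**
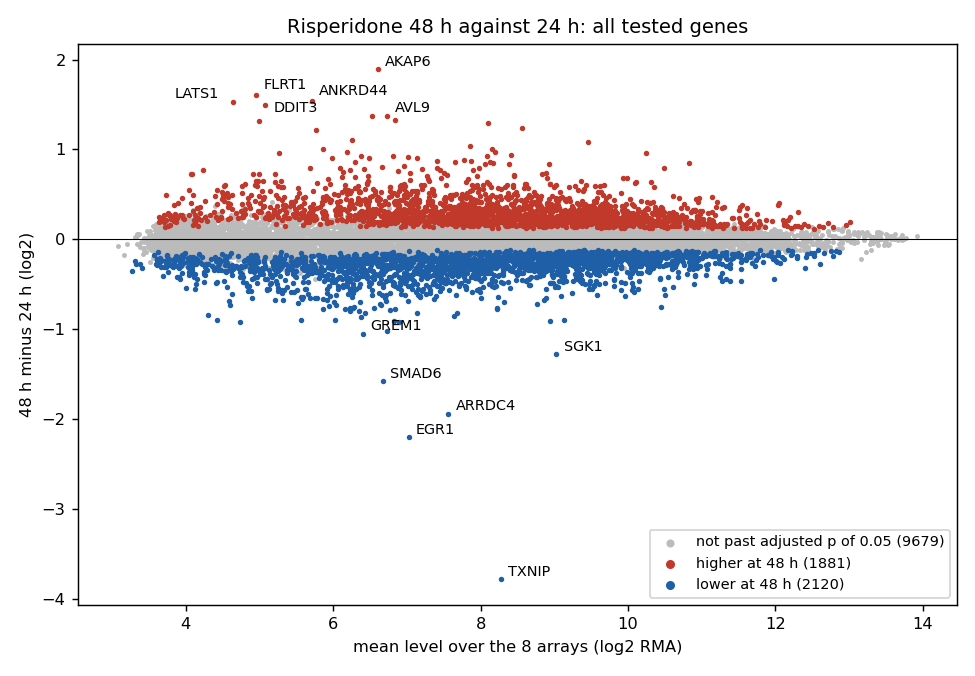
Difference between 48 h and 24 h (vertical, log2) against the mean level over the 8 arrays (horizontal, log2 RMA) for the 13680 tested genes, with genes past an adjusted p of 0.05 in red (higher at 48 h) or blue (lower). The falls of TXNIP (-3.785), EGR1 (-2.205) and ARRDC4 (-1.94) lie far below the other genes, while the largest rise, of AKAP6, is 1.89.

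The largest change was a fall of TXNIP, which encodes thioredoxin-interacting protein, an inhibitor of thioredoxin and of glucose uptake. TXNIP belongs to the alpha-arrestins, a family of adaptor proteins that also includes the ARRDC genes. Transcription of TXNIP and ARRDC4 is known to rise when glucose metabolites accumulate, through the transcription factors MondoA (gene MLXIP) and ChREBP (gene MLXIPL), which bind pairs of E-box-like motifs with their partner MLX. The 250 bases before the annotated start of both genes are shown because these genes had the 2 smallest p of the whole comparison. They are from RefSeq, build GRCh38.p14, in the direction of transcription, with every CACGAG and CACGTG on either strand in capitals. That of TXNIP lies at chr1:145996580-145996829 on the minus strand and is the first of 2 start windows listed for this gene. That of ARRDC4 lies at chr15:97960453-97960702 on the plus strand.
TXNIP: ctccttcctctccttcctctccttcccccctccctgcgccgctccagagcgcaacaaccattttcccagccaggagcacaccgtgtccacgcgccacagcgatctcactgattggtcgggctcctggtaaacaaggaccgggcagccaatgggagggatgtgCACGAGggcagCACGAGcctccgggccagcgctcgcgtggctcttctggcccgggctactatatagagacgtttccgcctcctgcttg
ARRDC4: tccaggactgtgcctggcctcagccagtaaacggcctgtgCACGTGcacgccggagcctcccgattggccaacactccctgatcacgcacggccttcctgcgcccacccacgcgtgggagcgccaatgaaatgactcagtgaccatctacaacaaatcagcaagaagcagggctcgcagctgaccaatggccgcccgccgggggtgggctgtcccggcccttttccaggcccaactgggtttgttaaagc
The TXNIP window holds 2 copies of CACGAG, starting 88 and 77 bases before the start site, and the ARRDC4 window holds 1 copy of CACGTG, starting 210 bases before it. In windows of 300 bases (250 before and 50 after the start), CACGAG was found in 6.79% and CACGTG in 7.43% of 27305 genes. The shares were 8.1% and 9.73% of 11147 tested genes, and 6.25% and 7.5% of 80 genes that fell by at least 1.5-fold. A match describes the letters only. CACGAG was not among the motifs fixed before the promoters were searched and was added later.

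TXNIP had levels of 6.22, 6.22, 6.65 and 6.43 in the 48 h arrays, against 10.15, 10.17, 10.11 and 10.23 in the 24 h arrays. It fell by 3.785 ± 0.09 (adjusted p = 7.43e-09), which is 13.8 times lower at 48 h, and its 4 other tested probe sets differed by -3.865 to -2.755. The groups were more than 3 units apart, and the 24 h arrays lay close to the means at 6 h (10.3) and in untreated cells (9.98). ARRDC4 had levels of 6.63, 6.59, 6.58 and 6.56 at 48 h, against 8.55, 8.58, 8.55 and 8.44 at 24 h, and fell by 1.94 ± 0.05 (adjusted p = 7.43e-09). Its arrays were tightly grouped at both times, and its other probe set differed by -2.

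The alpha-arrestins did not move together. ARRDC3, an adaptor for receptor ubiquitination, had levels of 8.36, 8.41, 8.41 and 8.33 at 48 h, against 7.33, 7.30, 7.31 and 7.43 at 24 h. It rose by 1.035 ± 0.05 (adjusted p = 1.40e-06), and its other probe sets differed by 0.52 to 0.555. ARRDC2 fell by 0.28 ± 0.08 (adjusted p = 0.0242), and its adjusted p was 0.0532 to 0.0702 without 24 h replicate 2 or 3 or 48 h replicate 1 or 3. ARRDC1 differed by 0.07 ± 0.07 (adjusted p = 0.553), and ARRDC5 was too dim to be tested. Of the genes for the transcription factors themselves, MLXIP differed by -0.125 ± 0.05 (adjusted p = 0.0795, and 0.0474 without 48 h replicate 4) and by 0.12 when its probe sets were averaged. MLXIPL fell by 0.21 ± 0.07 (adjusted p = 0.0472), a call that was lost when any array other than 24 h replicate 3 or 48 h replicate 4 was left out (adjusted p = 0.055 to 0.118). The call was also lost with array medians subtracted, after a further quantile normalization and after cyclic loess (limma, adjusted p = 0.0633 to 0.071). With probe sets averaged MLXIPL differed by -0.11 (adjusted p = 0.253). These ARRDC and MLXIP family members were named after their values had been seen, except ARRDC3 and ARRDC4.

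**Figure D2:**
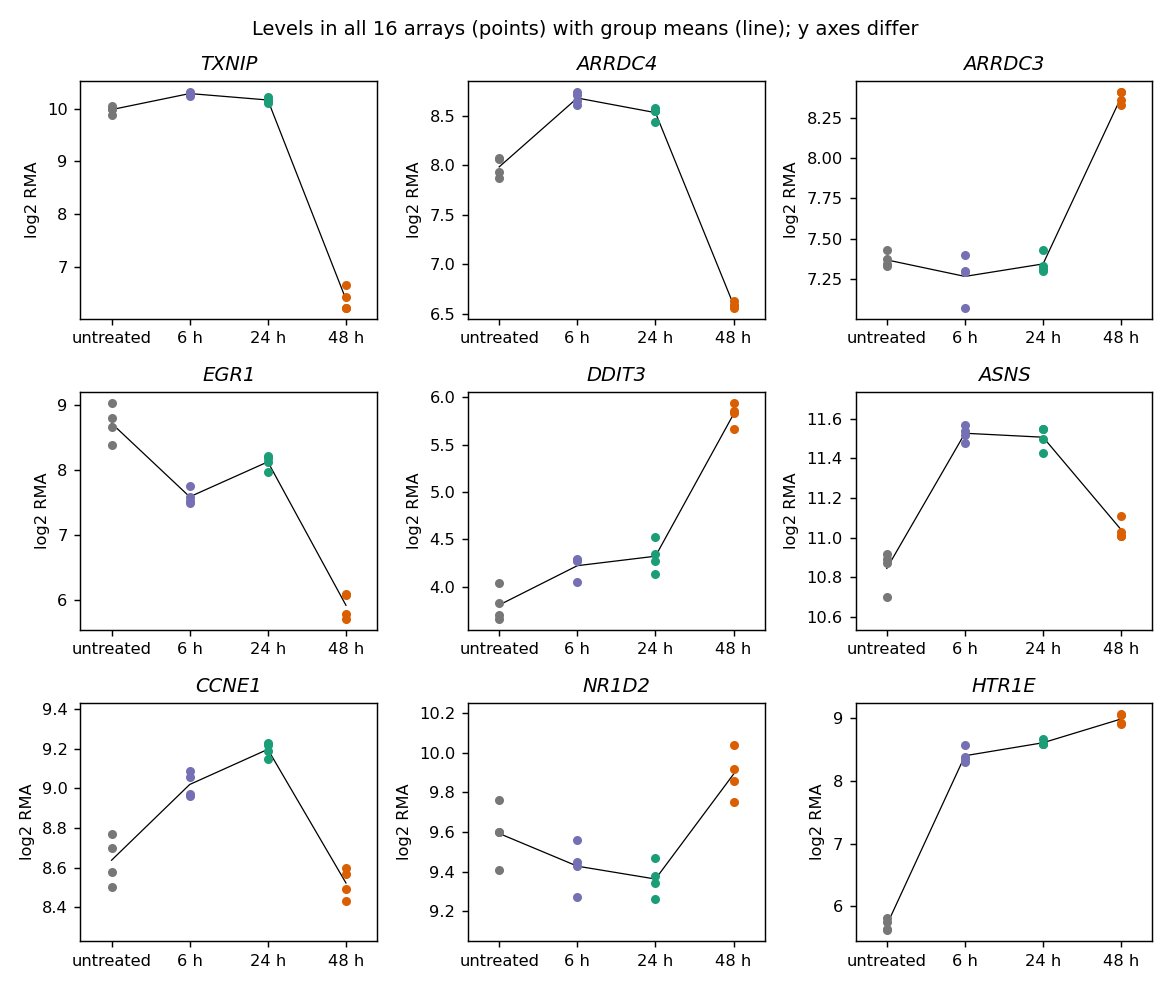
Levels (log2 RMA) of 9 genes in all 16 arrays, ordered untreated, 6 h, 24 h and 48 h, with points for arrays and a line through group means; vertical axes differ in range. At 48 h TXNIP and ARRDC4 lie below, and ARRDC3 above, all arrays of the other groups, while CCNE1 and ASNS turn down toward the untreated arrays and HTR1E makes most of its change by 6 h.

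After TXNIP, the largest fall was that of EGR1. The immediate early transcription factor gene EGR1 had levels of 6.10, 5.79, 5.71 and 6.08 at 48 h, against 8.19, 8.13, 7.97 and 8.21 at 24 h. It fell by 2.205 ± 0.10 (adjusted p = 1.40e-06), while its 5 other tested probe sets ranged from -2.505 to -0.03. SGK1, a kinase gene induced by serum and glucocorticoids, had 8.40, 8.33, 8.27 and 8.55 at 48 h, against 9.65, 9.69, 9.68 and 9.66 at 24 h. It fell by 1.28 ± 0.06 (adjusted p = 1.48e-06), and its other probe sets differed by -1.41 to -1.28.

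The 12 largest falls also held BMP2, GREM1, BAMBI and SMAD6, genes of BMP signalling grouped here after their values were seen. BMP2, a ligand, had 4.18, 4.20, 4.22 and 4.50 at 48 h, against 5.25, 5.25, 5.31 and 4.97 at 24 h, and fell by 0.92 ± 0.09 (adjusted p = 0.000102). GREM1, a secreted BMP antagonist, fell by 1.055 ± 0.10 (adjusted p = 7.53e-05), and its other probe sets fell by nearly the same (-1.04 and -1.03). BAMBI, a pseudoreceptor that dampens TGF-beta and BMP signals, had 8.50, 8.48, 8.52 and 8.46 at 48 h, against 9.44, 9.44, 9.39 and 9.35 at 24 h, and fell by 0.915 ± 0.04 (adjusted p = 1.40e-06). The inhibitory SMAD gene SMAD6 fell by 1.58 ± 0.09 on its brightest probe set (adjusted p = 5.16e-06), but its other probe sets differed by only -0.22 and -0.06. The remaining large falls were those of GLRX (glutaredoxin, -1.02 ± 0.08), CALCB (a calcitonin-related peptide, -0.92 ± 0.05, other probe set -0.285), PLXNA4 (a semaphorin receptor, -0.905 ± 0.08, other probe sets -0.31 and 0.12) and PMAIP1 (the BH3-only protein NOXA, -0.90 ± 0.07), with adjusted p between 5.01e-06 and 7.03e-05.

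**Figure D3:**
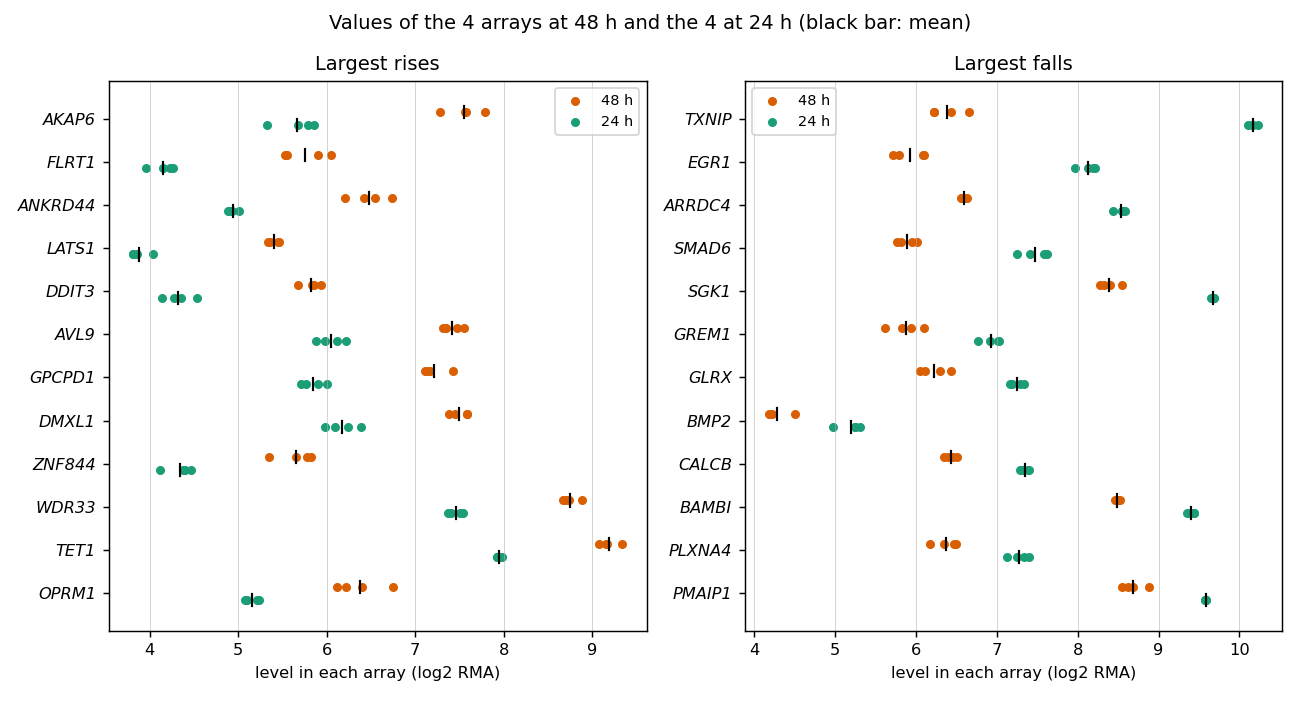
Level in each array (horizontal, log2 RMA) of the 12 genes with the largest rises and the 12 with the largest falls among genes whose groups do not overlap, with the 4 arrays at 48 h in orange above the 4 at 24 h in green and a black bar at each mean. TXNIP lies at 6.22 to 6.65 at 48 h and 10.11 to 10.23 at 24 h, the widest gap of the 24 genes.

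The largest rise was about as large as the fall of ARRDC4, and for several of the 12 largest rises the probe sets of the gene did not move alike. DDIT3, which encodes the stress transcription factor CHOP, had levels of 5.83, 5.94, 5.67 and 5.85 at 48 h, against 4.27, 4.14, 4.53 and 4.35 at 24 h. It rose by 1.5 ± 0.08 (adjusted p = 5.16e-06), and its other probe set rose by 1.325. TET1, a dioxygenase that oxidises methylcytosine, had 9.17, 9.08, 9.16 and 9.34 at 48 h, against 7.95, 7.98, 7.93 and 7.93 at 24 h, and rose by 1.24 ± 0.06 (adjusted p = 1.40e-06), with 1.11 on its other probe set. OPRM1, the mu opioid receptor gene, rose by 1.22 ± 0.12 (adjusted p = 9.26e-05) and by 0.76 to 1.06 on its other probe sets.

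AKAP6, which anchors protein kinase A, had 7.56, 7.57, 7.28 and 7.79 at 48 h, against 5.67, 5.32, 5.86 and 5.79 at 24 h. Its rise of 1.89 ± 0.13 (adjusted p = 1.31e-05) was the largest of all genes, but its other probe set differed by 0.09. DMXL1, which acts with the vacuolar proton pump, rose by 1.32 ± 0.09 where its other probe sets differed by -0.09 and 0.01. WDR33, part of the polyadenylation machinery, rose by 1.29 ± 0.06 where 6 others ranged from -0.50 to 0.38, and its call was lost when its probe sets were averaged (0.03, adjusted p = 0.608). LATS1, a kinase of the Hippo pathway, had 5.45, 5.36, 5.34 and 5.46 at 48 h, against 3.81, 4.03, 3.85 and 3.81 at 24 h, and rose by 1.53 ± 0.06 (adjusted p = 7.68e-07) on its single probe set. Its 24 h values were close to the dim limit. FLRT1 (a transmembrane adhesion protein, 1.61 ± 0.12) and AVL9 (a secretory pathway protein, 1.37 ± 0.08) also rested on 1 probe set. ANKRD44 (1.54 ± 0.10) had 0.27 on its other probe set, GPCPD1 (a phosphodiesterase of glycerophosphocholine, 1.37 ± 0.08) had 0.67, and the zinc finger gene ZNF844 (1.315 ± 0.11) had 0.31 and 0.35.

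Pathway and cell-state lists, 39 in all with 836 tested members, were described by their counts and medians beside the 13.8% of all tested genes that rose, the 15.5% that fell and their median of -0.01. The lists were chosen with earlier results of these data known.

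**Figure D4:**
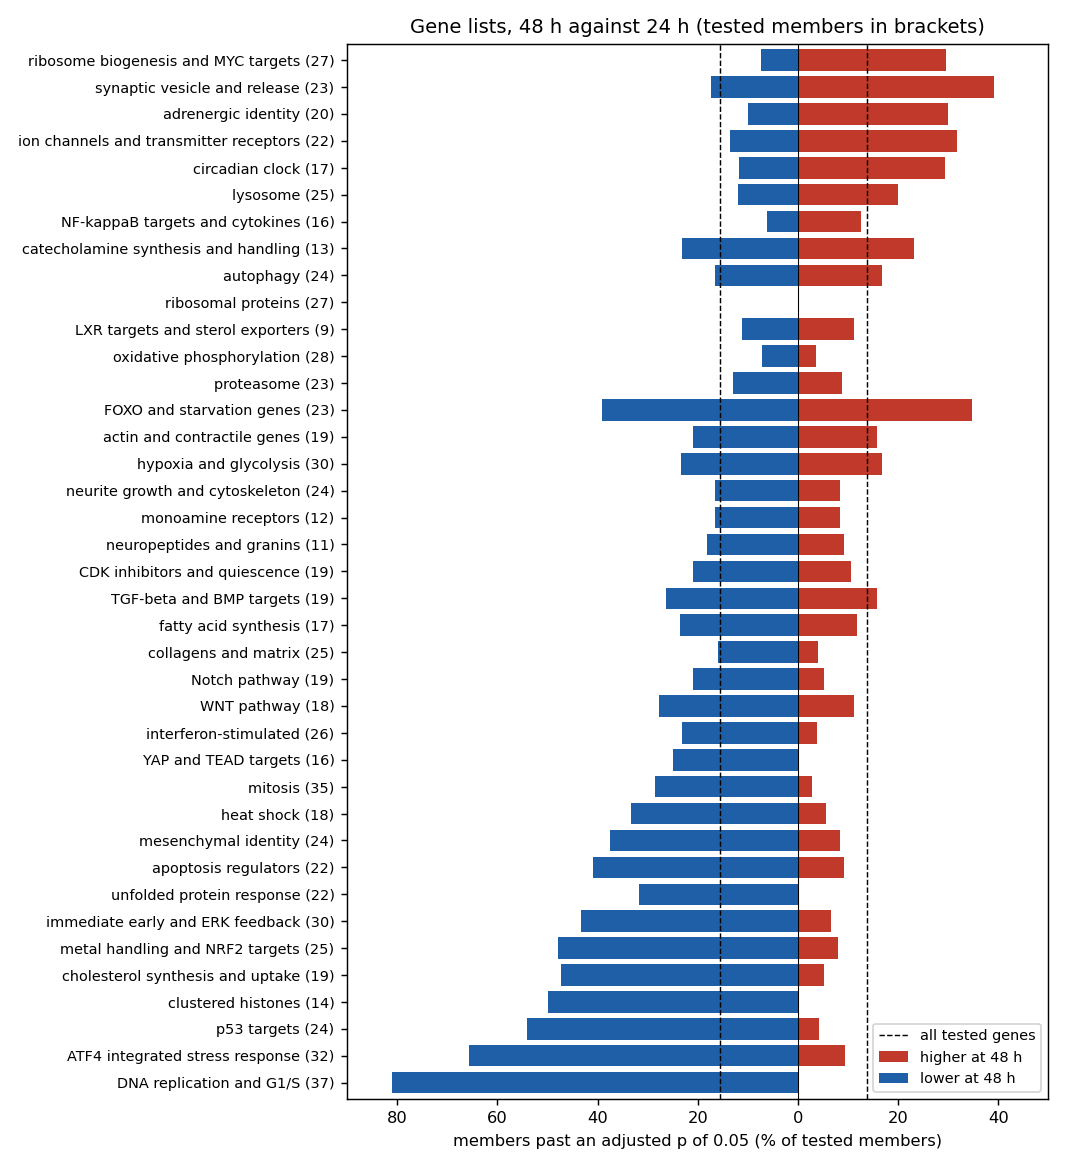
Percent of the tested members of each of 39 gene lists that rose (red, to the right) or fell (blue, to the left) between 24 h and 48 h at an adjusted p under 0.05, with tested members in brackets and dashed lines at the 13.8% and 15.5% of all tested genes. Replication genes (30 of 37 lower) and ATF4 genes (21 of 32 lower) extend farthest to the left, and synaptic vesicle genes (9 of 23 higher) farthest to the right.

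Genes for DNA replication and the entry into S phase fell. Of 37 tested members 30 fell and 0 rose, with a median of -0.29, and leaving out any 1 array left 27 to 30 falls. At an unadjusted p under 0.05, 33 were lower and 1 higher, the primase gene PRIM1 (0.11 ± 0.04, adjusted p = 0.0733), and limma with a trend and robust variances called 1 member higher. CCNE1, the cyclin E1 gene that drives entry into S phase, had levels of 8.49, 8.43, 8.57 and 8.60 at 48 h, against 9.23, 9.22, 9.19 and 9.15 at 24 h. It fell by 0.675 ± 0.05 (adjusted p = 2.09e-05). TK1, the thymidine salvage kinase, had 8.79, 8.77, 8.74 and 8.82 at 48 h, against 9.45, 9.31, 9.47 and 9.41 at 24 h, and fell by 0.63 ± 0.05 (adjusted p = 2.51e-05). CDC6, a loader of the replicative helicase, had 8.93, 8.98, 9 and 8.86 at 48 h, against 9.56, 9.48, 9.62 and 9.52 at 24 h, and fell by 0.60 ± 0.05 (adjusted p = 4.10e-05). In all 3 genes the groups were well apart, and a second probe set fell by 0.515 to 0.69.

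The genes that fell act at successive steps of replication. Among subunits of the helicase MCM6 fell by 0.515 ± 0.06, MCM4 by 0.38 ± 0.05 and MCM7 by 0.19 ± 0.05. GINS2 and GINS3 encode cofactors of this helicase, of which GINS2 fell by 0.49 ± 0.04 and GINS3 fell by 0.535 ± 0.05. PCNA, the sliding clamp, fell by 0.44 ± 0.05, and the flap nuclease gene FEN1 by 0.445 ± 0.05. RRM2, the regulated subunit of ribonucleotide reductase, fell by 0.495 ± 0.04, whereas RRM1 differed by -0.095 ± 0.07 (adjusted p = 0.328). The activators E2F1 and E2F2, which drive many of these genes, fell by 0.22 ± 0.05 and 0.62 ± 0.08, and the licensing factor CDT1 differed by 0.06 ± 0.07 (adjusted p = 0.554). Clustered histone genes, made mostly in S phase, were listed together with variant ones such as H2AZ1. Of the 14 members 7, H2AZ1 among them, fell and 0 rose (median -0.185). At an unadjusted p under 0.05 none was higher either. H2BC12 fell by 0.635 ± 0.07 (other probe set -0.13) and H1-2 fell by 0.37 ± 0.04, though near-identical histone copies may share probes.

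The promoters of PCNA and GINS2 are shown as those with the smallest p among the replication genes that fell and hold GCGGGAA, a form of the E2F motif, in the 250 bases before the start. GCGGGAA and CCAAT, the motif bound by NF-Y, are in capitals on either strand (CCAAT reads ATTGG on the other strand). The sequences are from RefSeq, GRCh38.p14, both on the minus strand, PCNA at chr20:5126623-5126872 (the first of 2 start windows) and GINS2 at chr16:85688955-85689204.
PCNA: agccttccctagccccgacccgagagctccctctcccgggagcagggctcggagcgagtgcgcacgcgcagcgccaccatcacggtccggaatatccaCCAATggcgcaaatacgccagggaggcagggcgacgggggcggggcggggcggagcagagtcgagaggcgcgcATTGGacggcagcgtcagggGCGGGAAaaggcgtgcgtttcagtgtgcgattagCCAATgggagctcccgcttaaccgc
GINS2: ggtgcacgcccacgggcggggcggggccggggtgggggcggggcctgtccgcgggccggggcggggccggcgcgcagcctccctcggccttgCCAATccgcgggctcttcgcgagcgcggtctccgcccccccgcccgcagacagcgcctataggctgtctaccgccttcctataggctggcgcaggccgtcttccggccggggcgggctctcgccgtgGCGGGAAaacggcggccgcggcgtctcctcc
In the 300-base windows GCGGGAA was found in 10 of 28 replication genes that fell and have a window (35.7%), in 9.91% of 11147 tested genes and in 6.56% of all 27305 genes. CCAAT was found in 18 of the 28 (64.3%), in 36.4% of tested genes and in 35.7% of all. It was also in 42.3% of the tested genes that fell, in 12 of 18 fallen ATF4 genes and in 6 of 8 fallen cholesterol genes. The cell cycle motifs TTTGAA and TTCGAA, fixed before the promoters were searched, were in 0 and 1 of the 28, against 10.2% and 1.7% of tested genes. The letters GCGGGAA were added to the search after the values had been seen, and none of these motifs was tested.

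**Figure D5:**
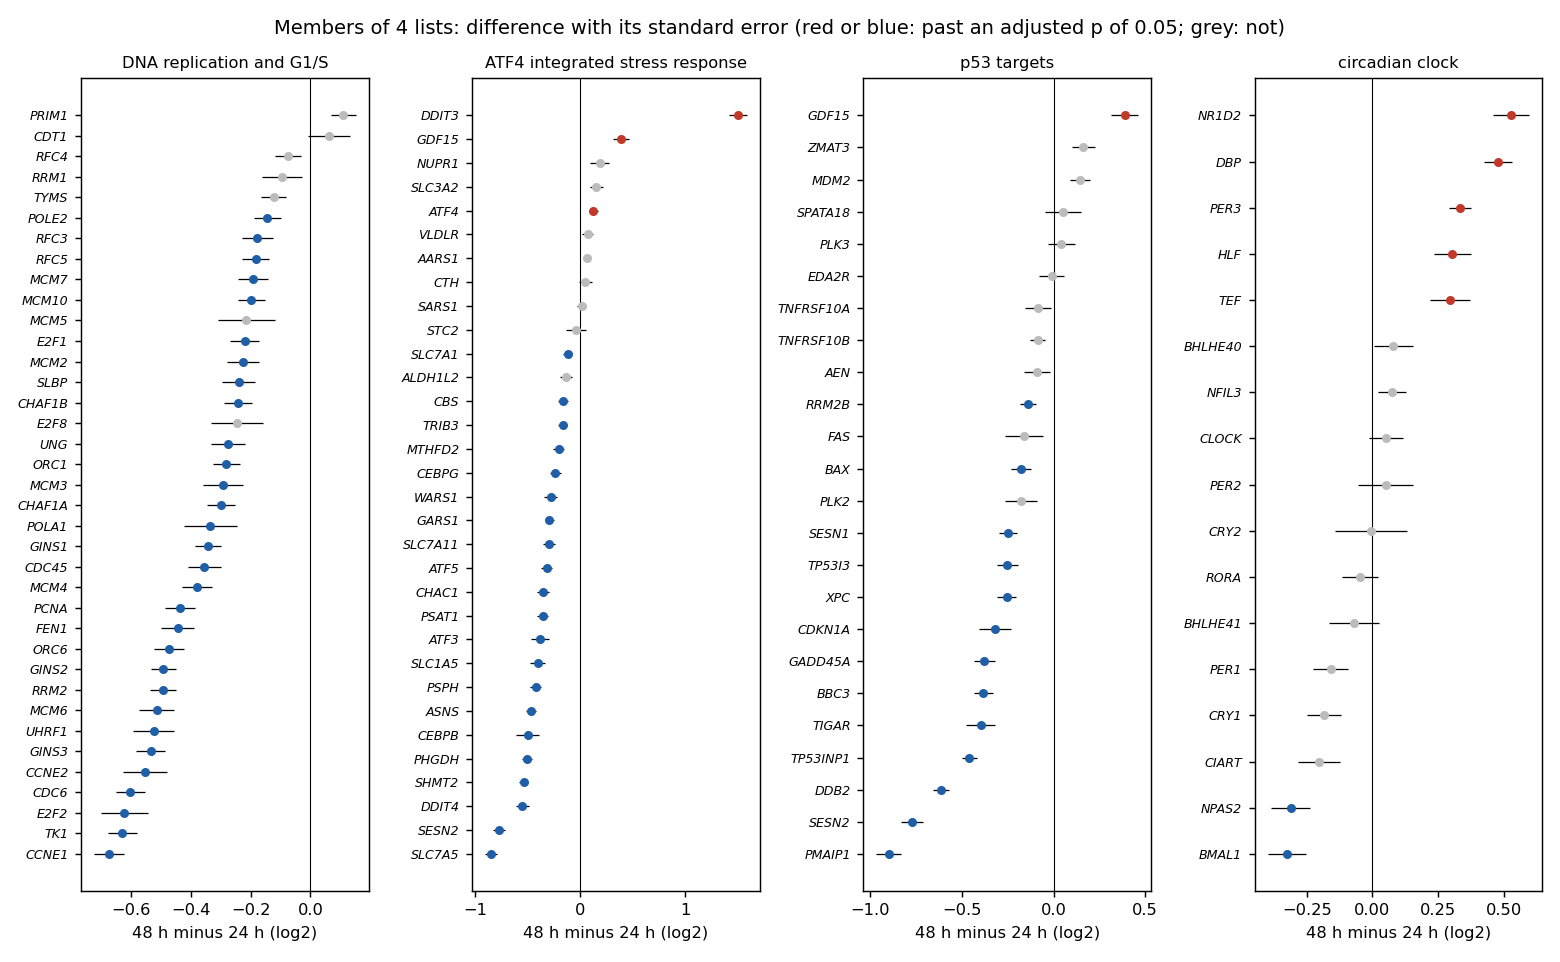
Difference between 48 h and 24 h (horizontal, log2) with its standard error for each tested member of 4 lists, in red (higher) or blue (lower) where the adjusted p was under 0.05 and in grey otherwise. All coloured replication genes lie left of 0, while DDIT3 (1.5) lies farthest right in the ATF4 list and 5 clock genes are coloured right of 0.

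Mitotic genes fell in 10 of 35 members and rose in 1, with a median of -0.08, and 2 rose without 24 h replicate 2. The mitotic kinesin gene KIF11 had levels of 9.49, 9.50, 9.57 and 9.58 at 48 h, against 9.72, 9.79, 9.77 and 9.77 at 24 h, and fell by 0.23 ± 0.04 (adjusted p = 0.0032). The cyclin gene CCNA2 fell by 0.24 ± 0.05 and the phosphatase gene CDC25C by 0.30 ± 0.07, while the kinetochore gene CENPF rose by 0.33 ± 0.08 (adjusted p = 0.0106). MKI67, a proliferation marker, differed by -0.075 ± 0.10 (adjusted p = 0.609), and its other probe sets ranged from -0.37 to 0.395. Of 19 CDK inhibitor and quiescence genes 4 fell and 2 rose. CDKN1C, which encodes the inhibitor p57, rose by 0.275 ± 0.05 (adjusted p = 0.00182), CCND3 (cyclin D3) fell by 0.51 ± 0.07, and CDKN1B, which encodes p27, differed by 0.015 ± 0.07 (adjusted p = 0.90).

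Genes of the integrated stress response fell, with CHOP as the main exception. ATF4 is a transcription factor whose translation rises when amino acids are short or proteins misfold, and its targets import and make amino acids. Of 32 members 21 fell and 3 rose, with a median of -0.26, and 19 to 21 fell when any 1 array was left out. SLC7A5, an importer of large neutral amino acids, had 7.16, 7.22, 7.17 and 7.29 at 48 h, against 8.08, 7.98, 8.18 and 8 at 24 h. It fell by 0.85 ± 0.06 (adjusted p = 1.10e-05), but its other probe set differed by -0.05. SESN2, a leucine sensor of the mTORC1 pathway, had 5.76, 5.87, 5.62 and 5.86 at 48 h, against 6.54, 6.58, 6.55 and 6.53 at 24 h, and fell by 0.77 ± 0.06 (adjusted p = 2.51e-05). ASNS, asparagine synthetase, had 11.01, 11.01, 11.03 and 11.11 at 48 h, against 11.43, 11.55, 11.5 and 11.55 at 24 h, and fell by 0.47 ± 0.05 (adjusted p = 0.000114). In these 3 genes the groups did not overlap.

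Enzymes that make serine and its one-carbon products fell as well, PHGDH by 0.51 ± 0.05, PSPH by 0.425 ± 0.05, PSAT1 by 0.36 ± 0.05 and SHMT2 by 0.54 ± 0.04. The members that rose were DDIT3 (1.5), the stress cytokine gene GDF15 (0.39 ± 0.07) and ATF4 itself (0.12 ± 0.04, adjusted p = 0.0479), and 2 rose when any array other than 48 h replicate 4 was left out. Genes of the unfolded protein response in the endoplasmic reticulum fell in 7 of 22 members and rose in 0 (median -0.12), and at an unadjusted p under 0.05, 12 were lower and 0 higher. Limma with a trend and robust variances called 12 lower. The chaperone cofactor gene SDF2L1 had 9.34, 9.35, 9.41 and 9.24 at 48 h, against 9.78, 9.83, 9.84 and 9.77 at 24 h, and fell by 0.47 ± 0.05 (adjusted p = 0.000126). MANF and HERPUD1 fell by 0.26 ± 0.04 and 0.28 ± 0.05. Of 18 heat shock genes 6 fell and 1, the regulator HSF1, rose, against 2 rises without 48 h replicate 4. HSPA1A fell by 0.33 ± 0.04 and HSPA1B by 0.46 ± 0.05, though these near-identical copies cannot be fully separated, and their cofactor DNAJB1 fell by 0.345 ± 0.05 (other probe sets -0.325 and 0.115).

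Targets of the tumour suppressor p53 fell in 13 of 24 members, with a median of -0.18, and 1 rose, or 2 without 24 h replicate 4. PMAIP1, which encodes the death-promoting protein NOXA, had 8.68, 8.88, 8.62 and 8.55 at 48 h, against 9.58, 9.59, 9.59 and 9.57 at 24 h. It fell by 0.90 ± 0.07 (adjusted p = 2.09e-05) and by 0.76 on its other probe set. DDB2, a DNA damage recognition gene, had 6.83, 6.85, 6.81 and 6.88 at 48 h, against 7.49, 7.51, 7.38 and 7.45 at 24 h, and fell by 0.615 ± 0.04 (adjusted p = 2.09e-05). CDKN1A, which encodes p21, overlapped between the times, with 9.24, 9.28, 9.16 and 9.55 at 48 h, against 9.79, 9.64, 9.55 and 9.53 at 24 h. Its fall of 0.32 ± 0.09 (adjusted p = 0.0208) was lost without 24 h replicate 1 or 2, or 48 h replicate 1, 2 or 3 (adjusted p = 0.0501 to 0.0564). MDM2, another p53 target, differed by 0.14 ± 0.06 (adjusted p = 0.0791). SESN2 and GDF15 belong to this list and to the ATF4 list.

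Of 22 regulators of apoptosis 9 fell and 2 rose. The falls took in genes that promote death, PMAIP1, BBC3 (-0.38 ± 0.05, other probe set -0.11), BAX and BCL2L11, and genes that protect, BCL2 (-0.23 ± 0.06) and MCL1 (-0.21 ± 0.05). CASP6, an executioner caspase, had 7.14, 7.22, 6.97 and 7.09 at 48 h, against 7.61, 7.59, 7.67 and 7.56 at 24 h, and fell by 0.50 ± 0.06 (adjusted p = 0.000222). BCL2L1 (BCL-XL) rose by 0.205 ± 0.04.

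Immediate early genes and feedback inhibitors of the ERK kinase cascade fell in 13 of 30 members and rose in 2, with a median of -0.15. After EGR1, SPRY1, an inhibitor of receptor tyrosine kinase signals, had 5.96, 5.80, 5.81 and 5.99 at 48 h, against 6.62, 6.65, 6.82 and 6.53 at 24 h. It fell by 0.765 ± 0.07 (adjusted p = 7.79e-05) and by 0.66 to 0.68 on its other probe sets. FOS fell by 0.34 ± 0.07 and DUSP6, a phosphatase of ERK, by 0.275 ± 0.06. The phosphatase gene DUSP4 had 10.00, 9.84, 9.88 and 9.90 at 48 h, against 9.51, 9.52, 9.53 and 9.48 at 24 h, and rose by 0.395 ± 0.05 (adjusted p = 0.000248). JUN rose by 0.49 ± 0.07.

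Among 19 targets and regulators of TGF-beta and BMP signals 5 fell and 3 rose, and without 48 h replicate 1 or 2 only 1 rose. INHBA, the activin A subunit gene, fell by 0.56 ± 0.06 on its brightest probe set and differed by 0.02 on the other, and ID3 fell by 0.29 ± 0.05. ID1, SKIL and PMEPA1 rose by 0.17 ± 0.05, 0.335 ± 0.10 and 0.445 ± 0.06. Of 19 Notch pathway genes 4 fell and 1 rose. The effector HEY1 had 8.06, 7.91, 7.77 and 8.08 at 48 h, against 8.53, 8.51, 8.47 and 8.37 at 24 h, and fell by 0.515 ± 0.07 (adjusted p = 0.000645), and the feedback regulator NRARP fell by 0.37 ± 0.07, with -0.045 on its other probe set. NOTCH4 fell by 0.66 ± 0.10, with -0.06 and -0.03 on its other probe sets. The single rise, of NOTCH2, was lost when any 1 array other than 48 h replicate 1 was left out. Of 18 WNT pathway genes 5 fell and 2 rose, and 3 fell without 24 h replicate 1, 24 h replicate 4 or 48 h replicate 3. Rises there numbered 0 without 24 h replicate 3 or 48 h replicate 1, and 1 without 24 h replicate 4 or 48 h replicate 2 or 4. TCF7L2, a transcription factor of this pathway, fell by 0.40 ± 0.08, with -0.145 on its other probe set and no call with probe sets averaged (-0.12, adjusted p = 0.0661).

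Metal-binding and antioxidant genes fell in 12 of 25 members and rose in 2, with a median of -0.18. NRF2 is the transcription factor that induces glutathione and thioredoxin enzymes under oxidative stress. GCLM, the regulatory subunit of the first enzyme of glutathione synthesis, had 7.95, 7.83, 7.87 and 7.92 at 48 h, against 8.49, 8.39, 8.41 and 8.38 at 24 h. It fell by 0.525 ± 0.05 (adjusted p = 6.12e-05) and by 0.48 on its other probe set. TXNRD1, thioredoxin reductase, had 11.17, 11.13, 11.12 and 11.13 at 48 h, against 11.41, 11.40, 11.42 and 11.42 at 24 h, and fell by 0.275 ± 0.04 (adjusted p = 0.000616). NQO1, a quinone reductase, fell by 0.34 ± 0.05. The metallothionein genes MT1F and MT1X fell by 0.405 ± 0.08 and 0.40 ± 0.06, MT2A fell by 0.32 ± 0.11 (adjusted p = 0.0487), and MT1H rose by 0.20 ± 0.05. Metallothionein copies are closely similar and their probe sets may share transcripts.

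Genes of cholesterol synthesis fell in 9 of 19 members, with a median of -0.18, after one of -0.16 between 6 h and 24 h. Their transcription is driven by SREBP2 when sterols are low, and INSIG1 is the feedback protein that holds SREBP2 in the endoplasmic reticulum. INSIG1 had 9.56, 9.51, 9.58 and 9.34 at 48 h, against 9.83, 9.91, 9.87 and 9.90 at 24 h, and fell by 0.38 ± 0.06 (adjusted p = 0.000984). IDI1 fell by 0.395 ± 0.09 and SQLE, squalene epoxidase, by 0.20 ± 0.05, while HMGCS1, an early enzyme, differed by -0.18 ± 0.07 (adjusted p = 0.0658, and 0.036 without 24 h replicate 1 and 0.0382 without 48 h replicate 2). The single rise, of SREBF2, was lost without 24 h replicate 1, 3 or 4 or 48 h replicate 1. The 250 bases before the start of INSIG1 are shown as the fallen member of smallest p that holds CACNCCA, the core of the sterol element (RefSeq, GRCh38.p14, plus strand, chr7:155297628-155297877), with CACNCCA (here as its reverse complement TGGCGTG) and CCAAT on either strand in capitals.
INSIG1: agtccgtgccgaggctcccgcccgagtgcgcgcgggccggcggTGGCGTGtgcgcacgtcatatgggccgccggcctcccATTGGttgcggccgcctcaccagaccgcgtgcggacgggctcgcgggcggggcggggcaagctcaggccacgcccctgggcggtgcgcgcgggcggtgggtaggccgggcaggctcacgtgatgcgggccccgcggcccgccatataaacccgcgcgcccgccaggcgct
CACNCCA was found in 4 of 8 cholesterol genes that fell and have a window, in 16.6% of tested genes and in 17.4% of all.

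Of 17 genes of fatty acid synthesis 4 fell and 2 rose. The falls numbered 1 without 24 h replicate 2 or 4 and 2 without 48 h replicate 1, 2 or 4, and the rises numbered 1 without 24 h replicate 1 or 3 or 48 h replicate 1. SCD5, a stearoyl-CoA desaturase, fell by 0.335 ± 0.05, a call lost with probe sets averaged (-0.11, adjusted p = 0.0555). Of 9 LXR targets and sterol exporters, MYLIP rose by 0.26 ± 0.05 and LPCAT3 fell by 0.26 ± 0.05, and 2 rose without 24 h replicate 3. ABCG1, a sterol exporter, differed by 0.11 ± 0.07 (adjusted p = 0.258). Among 25 lysosomal genes 5 rose and 3 fell, with NPC1, the lysosomal cholesterol transporter, up by 0.50 ± 0.08 (7.18, 7.20, 7.31 and 7.25 at 48 h, against 6.54, 6.77, 6.71 and 6.93 at 24 h, adjusted p = 0.000987) and GLA, alpha-galactosidase, down by 0.45 ± 0.04. Depending on the array left out, 2 to 5 lysosomal genes rose and 1 to 3 fell. These counts were 3 or lower for rises without 24 h replicate 2, 3 or 4 or 48 h replicate 1 or 2, and 1 for falls without 24 h replicate 1, 3 or 4 or 48 h replicate 1, 2 or 3.

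Among adrenergic genes and genes of synapses and ion channels, more members rose than fell. The summed level of the 8 measured adrenergic markers, on the linear scale, was 31090 to 31820 at 48 h and 28470 to 29520 at 24 h. Only 2 of these 8 rose and 0 fell, and the brightest, CHGA (13.2), weighs most in the sum. For the 8 mesenchymal markers the sum was 11010 to 11640 at 48 h and 10960 to 11150 at 24 h. It was carried by the brightest of them, TWIST1 (12.7), which rose by 0.18 ± 0.04, whereas 3 of the 8 fell. The part of either cell state in these results was not tested, and because whole cultures were lysed, fewer cells of a type and less RNA per cell cannot be told apart. Of 20 genes of adrenergic identity 6 rose and 2 fell, with a median of 0.08. CHGB, a granin of secretory vesicles, had 10.51, 10.55, 10.59 and 10.53 at 48 h, against 10.13, 10.21, 10.23 and 10.17 at 24 h, and rose by 0.36 ± 0.04 (adjusted p = 0.000275). The transcription factor gene TFAP2B rose by 0.31 ± 0.04 (other probe sets -0.08 and 0.23) and the receptor kinase gene ALK by 0.295 ± 0.05. SOX11 fell by 0.225 ± 0.05 and RET by 0.16 ± 0.05, and 1 of these falls was lost without 24 h replicate 2, 3 or 4 or 48 h replicate 2. MYCN differed by -0.05 ± 0.07 (adjusted p = 0.649).

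Of 13 genes that make and handle catecholamines 3 rose and 3 fell. DBH, which converts dopamine to noradrenaline, had 12.25, 12.20, 12.18 and 12.38 at 48 h, against 11.83, 11.91, 11.81 and 11.85 at 24 h, and rose by 0.40 ± 0.05 (adjusted p = 0.000472). GCH1, the first enzyme of the cofactor of TH, rose by 0.22 ± 0.05, and the vesicular transporter gene SLC18A2 rose by 0.25 ± 0.08. QDPR, which recycles that cofactor, fell by 0.21 ± 0.04, the noradrenaline transporter gene SLC6A2 by 0.245 ± 0.06 and the degrading enzyme gene MAOB by 0.31 ± 0.07. TH differed by -0.06 ± 0.05 (adjusted p = 0.448).

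Genes of synaptic vesicles and release rose in 9 of 23 members and fell in 4, with a median of 0.06, and the falls numbered 2 without 24 h replicate 3. PCLO, a scaffold of the active zone, had 8.63, 8.57, 9.06 and 8.93 at 48 h, against 7.87, 7.96, 7.88 and 8.15 at 24 h. It rose by 0.83 ± 0.11 (adjusted p = 0.00046), and its other probe sets differed by -0.17 and 0.74. RAB3C, a vesicle GTPase, rose by 0.49 ± 0.05 and RIMS1, another active zone scaffold, by 0.50 ± 0.07. Of 22 ion channels and transmitter receptors 7 rose and 3 fell, with a median of 0.08. The potassium channel gene KCNH1 had 8.26, 8.03, 8.19 and 8.18 at 48 h, against 7.55, 7.63, 7.43 and 7.35 at 24 h, and rose by 0.675 ± 0.07 (adjusted p = 0.000143). Its relative KCNH2 rose by 0.355 ± 0.04 on 1 probe set, with -0.09 and -0.02 on others, and the sodium channel gene SCN3A fell by 0.45 ± 0.07, a call lost with probe sets averaged (-0.12, adjusted p = 0.0868).

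Of 12 monoamine receptor genes, the family that risperidone binds, 1 rose and 2 fell. HTR1E, a serotonin receptor gene, had 9.06, 8.91, 9.07 and 8.93 at 48 h, against 8.67, 8.60, 8.59 and 8.59 at 24 h, and rose by 0.38 ± 0.05 (adjusted p = 0.000527). DRD2, the dopamine receptor that antipsychotics block, had 5.44, 5.57, 5.48 and 5.46 at 48 h, against 5.64, 5.69, 5.57 and 5.51 at 24 h, a difference of -0.115 ± 0.05 (adjusted p = 0.134). HTR7 differed by 0.155 ± 0.08 (adjusted p = 0.166), and ADRA1B was too dim to be tested. The falls were those of HTR2B (-0.28 ± 0.08) and DRD4 (-0.25 ± 0.08), both near the bottom of the scale. Their number was 0 without 24 h replicate 1, 3 or 4, 1 without 24 h replicate 2 or 48 h replicate 2 or 3, and 5 without 48 h replicate 4. Of 24 genes of neurite growth 2 rose and 4 fell, with MAPT, the tau gene, up by 0.41 ± 0.05 (other probe sets -0.005 to 0.36) and STMN4 by 0.30 ± 0.05. The falls numbered 2 without any of the 24 h arrays or 48 h replicate 1 or 3. Of 11 neuropeptide and granin genes SCG5 rose by 0.315 ± 0.05, while VIP fell by 0.32 ± 0.05 and PCSK1N by 0.36 ± 0.05.

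Mesenchymal genes, whose median was -1.90 at 6 h against untreated cells and 0.05 at 24 h against 6 h, fell in 9 of 24 members and rose in 2 in the late interval, with a median of -0.14. One of the falls, that of TWIST2, lay between means under the dim limit at both times (3.19 at 48 h and 3.43 at 24 h), and TWIST2 was tested through its level in untreated cells (5.69). The falls numbered 4 without 24 h replicate 1 or 2 or 48 h replicate 1, and 5 without 48 h replicate 3. One of the rises was lost when any array other than 48 h replicate 1 was left out. SNAI2, a transcription factor of the mesenchymal state, had 6.27, 6.24, 6.43 and 6.36 at 48 h, against 7.04, 6.91, 6.94 and 6.81 at 24 h, and fell by 0.60 ± 0.06 (adjusted p = 0.000131). FOSL2 fell by 0.555 ± 0.11, with other probe sets at -0.76 to -0.06. FN1, the fibronectin gene, differed by -0.24 ± 0.08 (adjusted p = 0.0415) and VIM, the vimentin gene, by -0.175 ± 0.05 (adjusted p = 0.0292). The call of FN1 was lost without 24 h replicate 1, 2 or 4 or 48 h replicate 1 or 2 (adjusted p = 0.0747 to 0.103), and that of VIM without 24 h replicate 1 or 2 or 48 h replicate 1, 2 or 3 (adjusted p = 0.0582 to 0.076). That of VIM was also lost after a further quantile normalization (limma, adjusted p = 0.067) or cyclic loess (adjusted p = 0.051), and that of FN1 with probe sets averaged (-0.15, adjusted p = 0.0846).

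Of 25 collagen and matrix genes 4 fell and 1, LUM, rose by 0.21 ± 0.06. The falls numbered 2 without 24 h replicate 2 or 4 or 48 h replicate 1, and the rise was lost without 24 h replicate 1 or 3 or 48 h replicate 2. COL4A1 fell by 0.37 ± 0.07. COL5A1 fell by 0.39 ± 0.10 with groups that overlap, and its call was lost with probe sets averaged (-0.24, adjusted p = 0.0718). YAP and TEAD are the transcription regulators at the end of the Hippo pathway, and the list of 16 tested targets also held the regulator genes WWTR1 and TEAD1. Of these 16 genes 4 fell and 0 rose, and 2 fell without 24 h replicate 2 or 4 or 48 h replicate 1. At an unadjusted p under 0.05, 5 were lower and 0 higher, and limma on all 16 arrays called 2 lower. FJX1 fell by 0.44 ± 0.07, and WWTR1 by 0.37 ± 0.10 with groups that overlap. One of the 4 falls, that of CCN2, is no measured change: all its 48 h values (2.93 to 3.23) and 24 h values (3.34 to 3.56) lay under the dim limit of 3.65, and it was tested only because the untreated arrays were bright (mean 8.79). Of 19 actin and contractile genes 4 fell and 3 rose. TPM1, tropomyosin, fell by 0.55 ± 0.06 with other probe sets at -0.50 to 0.41, TAGLN fell by 0.53 ± 0.10, and the cytoplasmic actin gene ACTG1 rose by 0.20 ± 0.05.

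Genes of the circadian clock rose in 5 of 17 members and fell in 2. NR1D2, a repressor in the clock loop, had 9.86, 9.92, 10.04 and 9.75 at 48 h, against 9.26, 9.38, 9.47 and 9.34 at 24 h. It rose by 0.53 ± 0.07 (adjusted p = 0.000416) and by 0.61 to 0.82 on its other probe sets. DBP, an output transcription factor, had 6.84, 6.67, 6.84 and 6.73 at 48 h, against 6.34, 6.23, 6.28 and 6.32 at 24 h, and rose by 0.48 ± 0.05 (adjusted p = 0.000187). Its relatives TEF and HLF rose by 0.295 ± 0.08 and 0.305 ± 0.07, and PER3 rose by 0.33 ± 0.04. The activators BMAL1 and NPAS2 fell by 0.33 ± 0.07 and 0.31 ± 0.07. Without 48 h replicate 1, 4 clock genes fell.

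Genes induced by FOXO factors and starvation split, with 8 of 23 members up and 9 down. After TXNIP and the ARRDC genes, PIK3IP1, an inhibitor of phosphoinositide 3-kinase, fell by 0.90 ± 0.05 and CAT, catalase, by 0.325 ± 0.05. SESN3, KLF15 and FOXO3 rose by 0.77 ± 0.10, 0.40 ± 0.06 and 0.22 ± 0.05. Of 30 hypoxia and glycolysis genes 7 fell and 5 rose. PFKFB3, which makes the activator of phosphofructokinase, had 8.59, 8.52, 8.50 and 8.65 at 48 h, against 9.18, 9.32, 9.17 and 9.20 at 24 h, and fell by 0.65 ± 0.05 (adjusted p = 3.71e-05), with -0.16 on its other probe set. PFKFB4 fell by 0.52 ± 0.06 (other probe sets -0.27 and 0.07), and HK2 and the glucose transporter gene SLC2A1 rose by 0.19 ± 0.06 and 0.125 ± 0.04. The rises numbered 2 without 24 h replicate 1 or 2 or 48 h replicate 3, and 3 without 24 h replicate 3 or 4 or 48 h replicate 1 or 2. Limma with a trend and robust variances called 11 of these 30 genes lower and 8 higher, and with array weights 13 were lower. A block for replicate number gave 4 falls and 2 rises. At an unadjusted p under 0.05, 13 were lower and 8 higher.

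Of 27 ribosomal protein genes 0 passed, also at an unadjusted p under 0.05, and these had a median of 0.02 and a range of -0.03 to 0.10, with RPL5 the nearest to a call (0.10 ± 0.05, adjusted p = 0.174). Limma with a trend and robust variances called 2 higher, averaging probe sets gave 2 higher and 1 lower, and 1 was higher without 48 h replicate 4. Of 28 genes of oxidative phosphorylation 1 rose and 2 fell, where the falls numbered 0 without 24 h replicate 2 and 1 without 24 h replicate 1 or 4 or 48 h replicate 2, and 2 rose without 48 h replicate 4. Ribosome biogenesis and MYC target genes rose in 8 of 27 members, with PPAN up by 0.45 ± 0.04 and ODC1, ornithine decarboxylase, up by 0.36 ± 0.04. The 2 falls, of CDK4 and EIF4E, were lost without 24 h replicate 1 or 3, and 1 was lost without 48 h replicate 1 or 2. Of 23 proteasome genes 2 rose and 3 fell, and PSME4, a proteasome activator, rose by 0.42 ± 0.05, with other probe sets at -0.02 to 0.38. Only 1 rose without 24 h replicate 1, 2 or 3 or 48 h replicate 1, 2 or 3, and 1 fell without 24 h replicate 3 or 48 h replicate 1 or 2. Of 24 autophagy genes 4 rose and 4 fell, with OPTN, an autophagy receptor, up by 0.45 ± 0.07, and 7 fell without 48 h replicate 4. Of 26 interferon-stimulated genes 6 fell and 1, IRF7, rose by 0.445 ± 0.07. IFIT5 fell by 0.50 ± 0.05 with 0.125 on its other probe set. Of 16 NF-kappaB targets the feedback inhibitor NFKBIA and NFKB1 rose by 0.24 ± 0.05 and 0.23 ± 0.05, and PTX3 fell by 0.64 ± 0.07. Without 48 h replicate 2, 2 of these genes fell.

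Whether the late interval differed from the one before it was tested as the difference itself, 48 h minus 24 h less 24 h minus 6 h, in the 12 treated arrays, with the 24 h arrays in both intervals. The intervals differ in length, and the difference was not scaled for it. In 835 genes the late change was higher and in 948 lower than the earlier one (6.1% and 6.93% of tested genes, 13% together). Of these 1783 genes 1639 were also called between 24 h and 48 h, as were 29.2% of all tested genes. This overlap is partly built in, because the difference tested contains 48 h minus 24 h on the same arrays. Leaving out any 1 24 h array moved the counts of 835 and 948, to 529 and 550 without replicate 2, 495 and 552 without replicate 3, 626 lower without replicate 1 and 546 higher without replicate 4. They were 921 and 1203 without 48 h replicate 4. Among lower late changes TXNIP had the largest such difference, -3.66 (adjusted p = 1.71e-08), followed by EGR1 at -2.74 and ARRDC4 at -1.79. Among higher ones AKAP6 had 2.04, FLRT1 1.59, LATS1 1.56, ANKRD44 1.43 and DDIT3 1.40. GPNMB, a glycoprotein of lysosomes and melanosomes, also ranked high at -1.455 (adjusted p = 0.00478), but it differed by only -0.14 between 24 h and 48 h, with mean levels of 6.83 at 6 h, 8.145 at 24 h and 8.005 at 48 h. TMEM178A, the remaining gene of the 5 lowest, had a late minus early difference of -1.19, with mean levels of 4.37 at 6 h, 4.72 at 24 h and 3.87 at 48 h.

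By list, 22 of 37 replication genes had a lower late change than the earlier one and 0 a higher one. Their median was 0.01 between 6 h and 24 h. For the ATF4 list 12 of 32 were lower and 1, DDIT3, higher, and for the p53 list 9 of 24 were lower and 0 higher. Mitotic genes gave the opposite order, with 6 of 35 higher and 0 lower, beside a median of -0.145 between 6 h and 24 h. Of 19 cholesterol genes 2 were higher and 0 lower, beside a median of -0.16 between 6 h and 24 h. Of the adrenergic genes 3 of 20 were higher and 1 lower.

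The late interval shares no array with 6 h against untreated, so both can be set side by side. At 6 h 4606 genes were higher and 2154 lower than in untreated cells (33.7% and 15.7%, 49.4% together), and after cyclic loess normalization 2629 were higher and 3255 lower. Of the genes called in both comparisons 1283 had the same direction and 1052 opposite ones (1193 and 962 after cyclic loess). Of 81 genes at least 2-fold higher at 6 h, 23 rose and 15 fell late, with a late median of 0.035. Of 572 genes at least 2-fold lower at 6 h, 34 rose and 134 fell late, with a late median of -0.09. Across the tested genes the differences of both comparisons had a Pearson correlation of 0.10, where genes are not independent replicates. Genes that turned round late included TXNIP and ARRDC4, which were 0.305 and 0.695 higher at 6 h than in untreated cells, BMP2 (0.375 higher), GPCPD1 (0.79 lower at 6 h) and the prostaglandin receptor gene PTGER3 (0.73 lower at 6 h, then up by 0.96 ± 0.10, with 0.05 to 0.26 on other probe sets). Genes with the largest late changes in the direction already seen at 6 h were EGR1 (1.13 lower at 6 h), SMAD6 (0.69 lower), FLRT1 (0.32 higher), ANKRD44 (0.54 higher) and DDIT3 (0.415 higher). ASNS had been 0.68 higher at 6 h than in untreated cells, and INSIG1 0.66 higher. At 48 h the mean levels of ASNS and INSIG1 were 11.04 and 9.50, against 10.8 and 9.32 in untreated cells.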

How the data were processed

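Total RNA of SK-N-SH cells was hybridised to 1-colour Human Genome U219 arrays, 16 in all and 4 per group. The deposited values are log2 expression per probe set, made with RMA per the submitters' processing notes; its version is not given in the sources used here. RMA equalises the distributions of arrays, so a change in total RNA per cell cannot be seen. The table held 49386 probe sets with values of 2.57 to 13.98. GEO's platform annotation gave 1 gene symbol for 45259 probe sets, several for 1327 and none for 2707 that were not controls, and 45178 of the single-symbol probe sets matched RefSeq by Entrez identifier. Each of 18239 genes took its probe set of highest mean over the 16 arrays (11823 genes had more than 1). The lowest 25% by that mean, under 3.65, were left out. A gene bright only in the other groups passed: 93 tested genes had means under this limit at both 48 h and 24 h, and 5 of them were called, all lower.

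For the 8 arrays compared, lmFit and eBayes of limma 3.58.1 were run under R 4.3.3, two-sided, with Benjamini-Hochberg adjustment over 13680 genes. The late minus early contrast used the 12 treated arrays, and 6 h against untreated its own 8. Values after ± are standard errors unless given as SD. The number of arrays limits the precision. The fit was tested on simulated data with known answers.

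Named were the 12 largest rises and falls with groups that do not overlap, up to 3 members of smallest p of each list, the 5 largest differences each way between intervals, the 5 largest late changes in and against the 6 h direction, and a fixed set of genes of interest. Further list members were chosen after their values were seen. The members, lists and tests were all chosen with earlier results of these data known. Genes of a list without a usable probe set were not analysed here. Promoter windows came from RefSeq (GRCh38.p14), 27305 genes in all and 11147 of those tested. Alternatives to the probe set choice, filter, normalization, test and arrays were run, and 1 was added after seeing the data.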

Additional observations from a re-analysis of the deposited data

Results flagged for a closer look

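In groups of 4 arrays, a value was singled out when its gap to the nearest other array as a share of the group's range, was above Dixon's critical value for 4 samples. Of 306 groups checked (153 named genes at both times) 19 met this, 9 at 48 h and 10 at 24 h, where chance alone singles out about 1 group in 20. At 48 h, replicate 4 gave 6 of them: BMP2 (4.50), COL5A1 (6.92), MYLIP (7.52), GUSB (9.87), OPTN (8.42) and CDKN1B (9.55). The others at 48 h were FOSL2 in replicate 1 (5.05), NOTCH4 in replicate 3 (5.13) and HTR7 in replicate 2 (4.08). At 24 h, replicate 1 was apart for HTR1E (8.67), MYLIP (7.12), PSMB3 (11.29) and CDKN1B (9.60), replicate 2 for HSPA1A (11.28) and OAS3 (8.59), replicate 3 for TPM1 (10.32), GUSB (9.40) and TH (5.10), and replicate 4 for IRF7 (5.98). The array of 48 h replicate 4 was also apart on the second principal component, at -15.03.

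The late interval differed from the interval between 6 h and 24 h in 1783 genes by the test of the difference itself (limma, adjusted p under 0.05).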

How the results depend on the processing

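The 1881 rises and 2120 falls became 4164 and 4091 when every probe set was tested by itself, 1112 and 1165 at an adjusted p under 0.01, and 132 and 97 at a minimum of 1.5-fold. Leaving out 1 array gave 1495 to 1974 rises and 1629 to 2431 falls. For the late minus the early interval, 835 higher and 948 lower became 1794 and 1640 with every probe set, 327 and 350 at 0.01, 164 and 191 at 1.5-fold, and 1444 lower with array weights. Leaving out 1 array gave 495 to 921 higher and 550 to 1203 lower. At 6 h against untreated, cyclic loess gave 2629 higher and 3255 lower in place of 4606 and 2154. Same-numbered arrays at 48 h and 24 h did not deviate together (correlations of -0.08 to 0.06, own number never the best match), and a replicate block gave 1588 rises and 1750 falls. Of 78 counts of list members, averaging probe sets moved 21 by over 1.5 times, and cyclic loess moved 2. With limma's trend and robust variances 12 genes of the unfolded protein response fell in place of 7, and with probe sets averaged 10 heat shock genes fell in place of 6. Directions turned for genes near 0: with probe sets averaged MLXIP was 0.12 and GAPDH -0.00375, after a further quantile normalization GAPDH was -0.014, and leaving out 1 array gave -0.0975 to 0.0158 for MYCN, -0.0267 to 0.0783 for CDKN1B, -0.00833 to 0.0117 for GAPDH and -0.00333 to 0.0133 for the GAPDH 3 prime to 5 prime difference. The reversals without 1 array were MYCN without 48 h replicate 4 (0.0158), CDKN1B without 24 h replicate 1 (-0.0267) or 48 h replicate 1, 2 or 3, and GAPDH without 24 h replicate 1 or 48 h replicate 3. The cause was not tested for any of these. The number of arrays, and the nearness of a probe set to the bottom of the scale, limit what small differences can show.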

Other observations

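Zinc finger genes whose symbol begins with ZNF, a group chosen after the values had been seen, rose in 111 and fell in 78 of 446 tested members (24.89% and 17.49%, against 13.8% and 15.5% of all tested genes), with a median of 0.01. At a minimum of 1.5-fold 15 rose and 1 fell. Genes with a symbol beginning with SLC, mostly transporters of solutes, rose in 27 and fell in 52 of 287 tested members (9.408% and 18.12%).

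Genes that rose by at least 1.5-fold had a median genomic span of 83087 bases, genes that fell by as much one of 22974, and all tested genes one of 28885. Of the 85 such rises with another tested probe set, the other had the same sign in 83.5%, with a median difference of 0.33 beside 0.715 for the probe set used. Of the 69 such falls it had the same sign in 94.2%, with a median of -0.34 beside -0.69. Among all 8232 tested genes with another probe set, called or not, the sign was the same in 71.7%. These values describe the genes called and were not tested.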
